A study of Mus musculus with 8 samples.

Results

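Whole testes of mice homozygous for an altered Rnf17 gene were compared with testes of mice heterozygous for it, by RNA sequencing. The comparison used 4 of the 8 libraries of the series, 2 homozygous and 2 heterozygous, chosen by genotype and by the absence of an antibody step in the sample labels. All mice were C57BL/6 and 6 weeks old, and no other allele, transgene or treatment is named for either group. The heterozygous controls carry 1 altered copy of Rnf17, so no library of testis from unaltered mice entered the comparison. The labels state neither what the alteration is nor how many animals each genotype stands for. Total RNA was copied with primers selected to avoid ribosomal RNA, and the deposited values are read counts for 19276 rows of a gene table and for 1268 transposon rows, which list 634 families in each orientation.

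RNF17, also called TDRD4, is a germ cell protein with several Tudor domains, folds that bind methylated arginines such as those at the ends of PIWI proteins. PIWI proteins carry piRNAs, small RNAs cut from long precursor transcripts, and hold transposons silent in male germ cells. Male germ cells pass from dividing spermatogonia through the meiotic prophase of spermatocytes to haploid round spermatids, which then elongate. During elongation histones give way to transition proteins and then protamines, the tail is built from an axoneme sheathed by outer dense fibres and a fibrous sheath, and the acrosome, a secretory cap used at fertilisation, spreads over the head. Many of these late messages are first made in round spermatids, where the transcription factor CREM acts at cAMP response elements close to the start site.

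Levels are given as CPM (counts per 1000000), reads divided by the library's gene reads after TMM scaling, first for replicate 1 and then for replicate 2 of a genotype. Replicate ratios divide the homozygous by the heterozygous level of the same number, and no ratio is given where either library held 3 reads or fewer. The labels do not say that libraries of the same number share an animal, litter or day, so the ratios are descriptions. Gene reads numbered 6140624 and 19838802 in heterozygotes and 7260047 and 50575649 in homozygotes, with TMM factors from 0.724 to 1.36. Correlation of log2 CPM across 14332 genes, which are not independent replicates, was 0.877 between the heterozygous and 0.928 between the homozygous libraries. The label of testis was checked on marker genes: Ddx4, a germ cell helicase, stood at 1156 and 1487 CPM in heterozygotes and 564 and 1500.2 CPM in homozygotes. Of 10 genes of the epididymis, the duct next to the testis, 9 did not pass the filter on low counts, yet Crisp1 and Adam7 stood at 0.101 and 48.6 CPM and 0 and 23.1 CPM in homozygotes, almost wholly in replicate 2. The replicate numbers differed in a similar way in both genotypes, and not in a few rows alone. Across 14332 genes, the log2 difference between replicates 1 and 2 in heterozygotes correlated with that in homozygotes (r = 0.589). Large differences of this kind were fewer: 28 genes were at least 4-fold higher and 144 at least 4-fold lower in replicate 1 than in replicate 2 in both genotypes. With 2 libraries against 2, an exact permutation test of a single value cannot give a p below 0.33, so tests rest on fits across all genes, and their p-values take in no spread beyond that among the 4 libraries, which may be technical.

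Rnf17 itself was lower in homozygotes. It stood at 499 and 567 CPM in heterozygotes and 50.1 and 101 CPM in homozygotes, and the groups did not overlap. Replicate ratios were 0.1 and 0.178, and the fitted log2 difference was -2.84 (SE 0.61), with an adjusted p of 0.139 by edgeR's quasi-likelihood test with Benjamini-Hochberg adjustment and 4.78e-04 by DESeq2. Where in the gene these remaining reads lie cannot be read from a table of counts per gene.

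Across the transcriptome, DESeq2 calls and large differences were mostly lower in homozygotes, and the gene lists with the lowest medians were those of haploid cells. By sign alone, 6893 tested genes lay below 0 and 7439 above. DESeq2 called 685 genes lower (4.78% of 14332 tested) and 25 higher (0.174%). EdgeR called 0 genes after adjustment, with a smallest adjusted p of 0.133. It gave an unadjusted p under 0.05 to 1169 genes lower (8.16%) and 284 higher (1.98%), among them all 710 genes that DESeq2 called. Scaled by total gene reads without TMM factors, which moved the median log2 difference of all genes from 0.04 to 0.53, edgeR again called 0 genes and the unadjusted split became 776 lower and 882 higher. Differences below are relative to the TMM scale. Leaving out 1 library moved the DESeq2 count to between 334 and 1261 genes, with more lower than higher each time (333 lower and 1 higher without homozygous replicate 2, 976 lower and 285 higher without heterozygous replicate 1).

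The same asymmetry was seen when each replicate number was taken on its own. In replicate 1, 567 genes were at least 4-fold lower in the homozygous library and 126 at least 4-fold higher, on CPM plus 0.5. In replicate 2 these were 946 and 196. In both numbers at once, 405 genes were at least 4-fold lower (2.83%) and 8 at least 4-fold higher (0.0558%), which became 242 and 44 without TMM factors. DESeq2 had called 398 of the 405 lower. Groups did not overlap for 2754 genes lower (19.2%) and 3018 higher (21.1%), so lower and higher genes were about as frequent by that looser measure, and the asymmetry lay in large differences. Genes at least 4-fold lower in both numbers ran from 3 of 1723 (0.174%) at a mean log2 CPM under 1 to 127 of 1929 (6.58%) at 7 or more. At low levels the added 0.5 CPM makes a 4-fold difference hard to reach, so this rise with level is in part set by the rule. The median log2 difference was 0.29 in the first of these bins and -0.41 in the last.

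**Figure D1:**
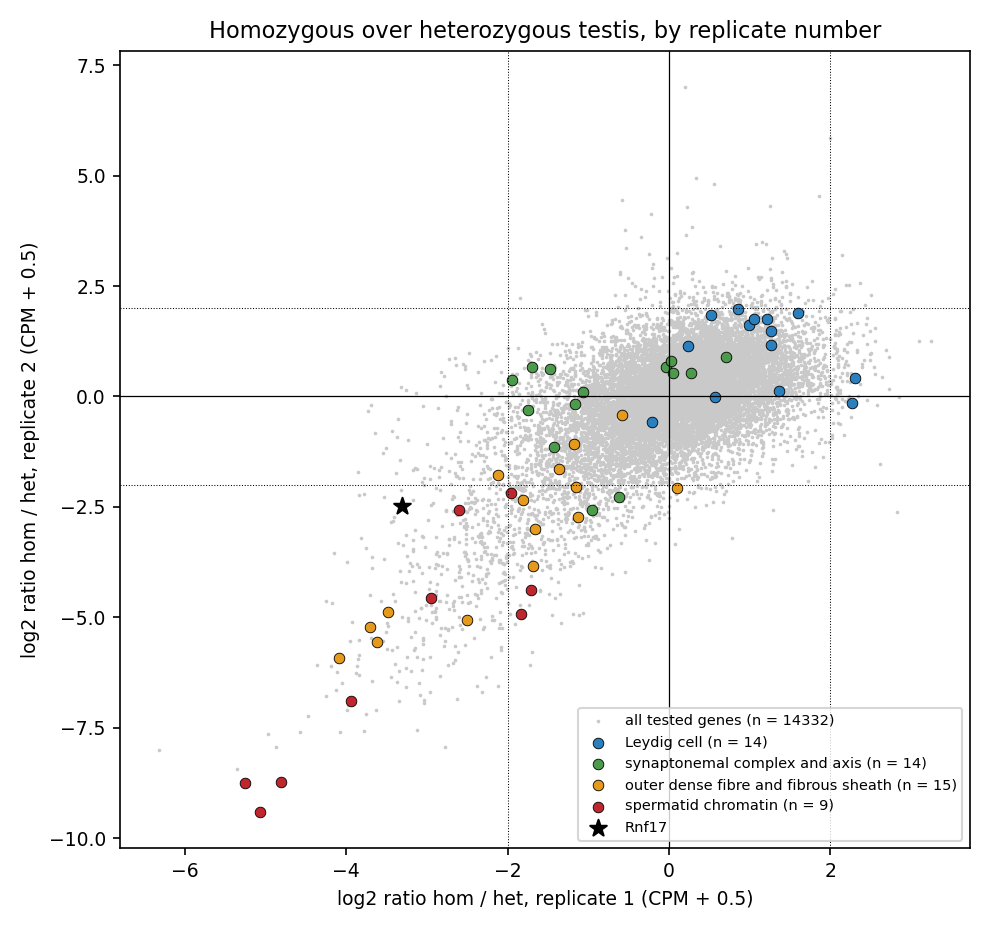
Log2 ratio of homozygous to heterozygous CPM (plus 0.5) in replicate 1, x axis, and replicate 2, y axis, for each of 14332 tested genes, with members of 4 lists coloured and Rnf17 as a star; dotted lines mark 4-fold. Members of the spermatid chromatin list reach the far lower left, Leydig cell genes lie mostly above 0 in both numbers, and synaptonemal complex genes lie on both sides of 0.

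The heterozygous libraries themselves differed in these genes. Of the 405 genes at least 4-fold lower in both numbers, 352 (86.9%) were lower in heterozygous replicate 1 than in replicate 2, against 56.2% of all tested genes. Their median ratio of heterozygous replicate 2 to replicate 1 was 2.67, against 1.13 over all tested genes. Their median replicate ratio was 0.165 in number 1 and 0.0682 in number 2. In RNA from a whole organ, fewer cells of a type and less RNA per cell cannot be told apart, and this holds for every cell-type list that follows.

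Genes that repackage the spermatid nucleus had the lowest median of the lists. All 9 members of the list were called lower by DESeq2 (100%, against 4.78% of all tested genes). Their median log2 difference was -4.30, where the median of all tested genes was 0.04. Tnp1, which encodes transition protein 1, was at 1161 and 8004 CPM in heterozygotes and 40.9 and 18.4 CPM in homozygotes. Both homozygous libraries lay far under the lower of the heterozygous libraries, with ratios of 0.0352 and 0.0023 (log2 difference -7.26, SE 1.28). Prm1, encoding protamine 1, stood at 300.3 and 1761 CPM against 7.38 and 3.58 CPM, ratios of 0.0246 and 0.00203. For Prm2, encoding protamine 2, the levels were 416 and 2119 CPM against 11.9 and 2.63 CPM, ratios of 0.0287 and 0.00124. Tnp2, encoding transition protein 2, was at 97.6 and 438 CPM against 5.86 and 3.2 CPM. In each of these 4 genes heterozygous replicate 1 held less than replicate 2, by several fold, and the homozygous libraries were lower than either. DESeq2 adjusted p-values were 2.09e-14 for Tnp1, 1.83e-16 for Prm1, 4.44e-14 for Prm2 and 4.32e-11 for Tnp2. The edgeR adjusted p was 0.133 for each.

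The remaining members were lower to a smaller degree. H1fnt, a testis linker histone, was at 359.8 and 730.4 CPM in heterozygotes and 46.2 and 30.4 CPM in homozygotes. Hils1, the linker histone-like protein of elongating spermatids, was at 52 and 575 against 15.6 and 27.1 CPM, and Prm3 at 74.9 and 929.5 against 20.6 and 30.2 CPM. Chd5, a chromatin remodeller, was at 326 and 488 against 83.4 and 106 CPM, and Camk4, a kinase that phosphorylates protamine 2, at 114 and 66.7 against 18.4 and 10.8 CPM. Camk4 was the single member of the list with less in heterozygous replicate 2 than in replicate 1. Summed over the list, the level was 2902 and 15112 CPM in heterozygotes and 250.3 and 233 CPM in homozygotes, so the homozygous libraries nearly matched each other while the heterozygous libraries differed 5.21-fold.

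**Figure D2:**
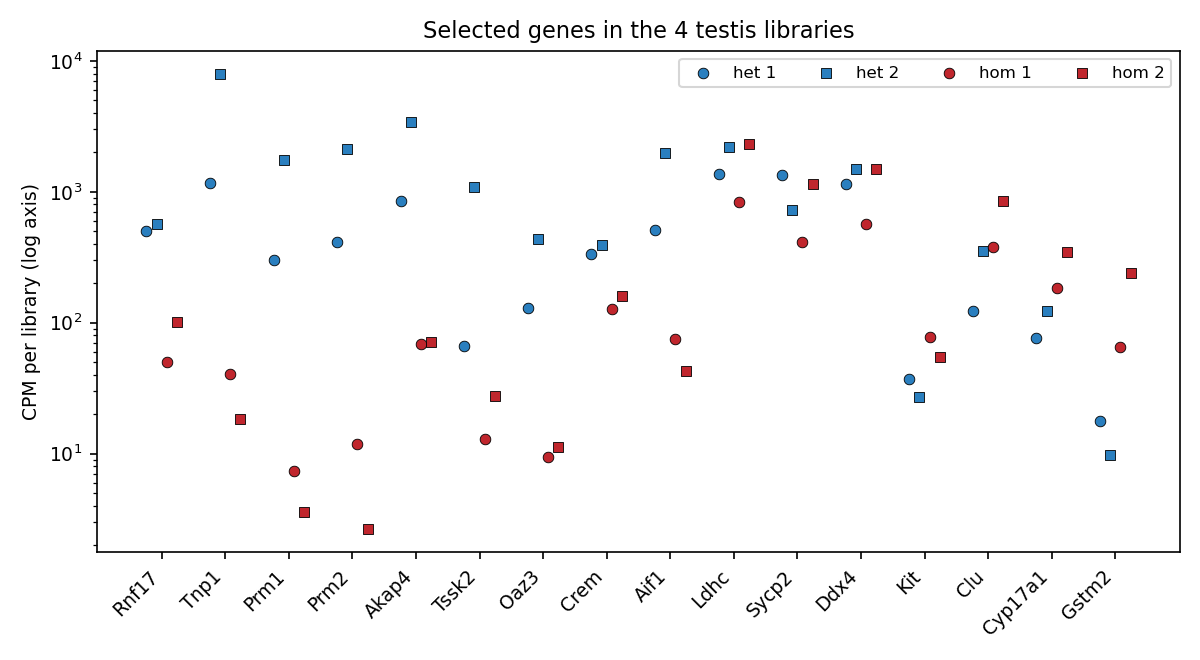
CPM on a log axis of 16 genes in each of the 4 testis libraries, circles for replicate 1 and squares for replicate 2, blue for heterozygous and red for homozygous. From Rnf17 to Aif1 both red points lie below both blue points; Ldhc, Sycp2 and Ddx4 overlap; and from Kit to Gstm2 the red points lie above the blue ones.

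Upstream sequences were read because the late spermatid messages share a known class of promoter. RefSeq promoters of GRCm38.p6 were matched by current symbol, or by an older symbol that belongs to 1 gene, for 322 of the 405 genes at least 4-fold lower in both numbers and for 11287 promoters of tested genes, and the 250 bases before each annotated start were searched on both strands. The files were made on mm9, so coordinates are those of the reference only. The palindromic full element TGACGTCA occurred in 5 of the 322 promoters (1.55%), in 294 of the 11287 (2.6%) and in 1.62% of all 27025 promoters. The shorter site TGACG, which lies inside the full element, occurred in 15.8%, 25.3% and 17.9%. Neither was more frequent upstream of the lower genes. Both sites hold a CpG pair, and the shares are not matched for base composition, which differed as given below.

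Once these shares had been seen, elements with 1 base changed were counted. Any such element or the full one occurred in 91 of the 322 promoters (28.3%), against 11.8% of tested and 10.9% of all promoters. A single form held most of the difference. TGATGTCA, or its reverse complement TGACATCA, stood in 51 of the 322 promoters (15.8%), in 247 of the 11287 (2.19%) and in 3.02% of all promoters. TGAGGTCA, or TGACCTCA, stood in 6.83% against 1.49% of tested promoters, and TGACTTCA, or TGAAGTCA, in 3.11% against 1.03%. No test was run on these shares, and the forms were singled out after their counts were known.

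These matches lay close to the start site. In the lower genes the nearest TGATGTCA or TGACATCA began a median of 60 bases before the start, and 49 of 51 (96.1%) lay within 120 bases, a limit set after seeing the positions. In the other tested genes with a match, 141 of 196 (71.9%) lay within 120 bases. Read the other way, 51 of the 247 genes with the form (20.6%) were at least 4-fold lower in both numbers, against 2.45% of 11040 without it, and the median log2 difference was -0.60 with the form and 0.04 without. DESeq2 called 69 of the 247 lower and 1 higher.

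**Figure D3:**
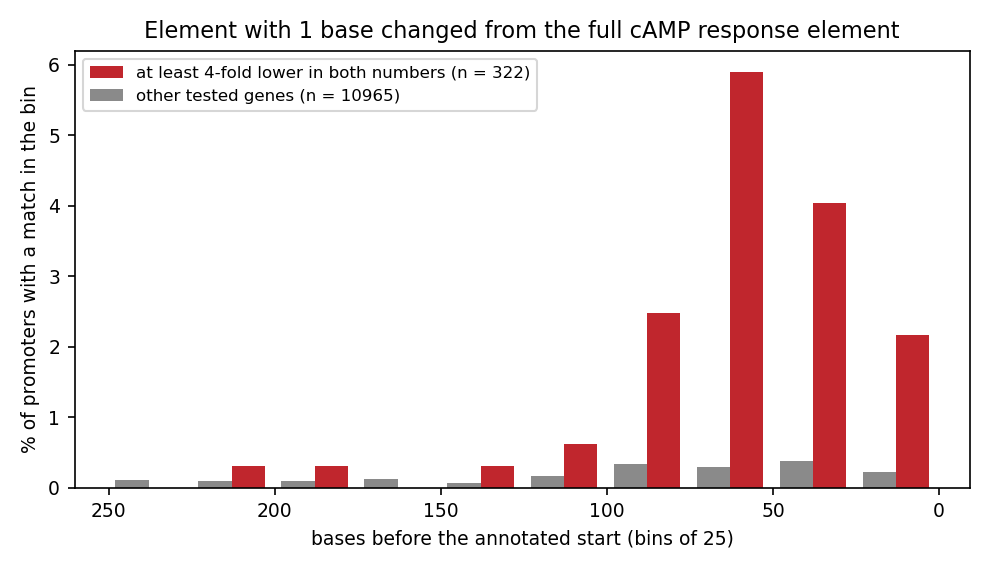
Percent of promoters, y axis, with TGATGTCA or TGACATCA in each 25-base bin before the annotated start, x axis, for 322 genes at least 4-fold lower in both replicate numbers (red) and 10965 other tested genes (grey). The red bars are highest from 51 to 75 bases (5.9%, against 0.292% in grey) and are at most 0.311% beyond 125 bases.

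Base composition differed as well. The lower genes' promoters had a median GC content of 50.4% and 3 CpG pairs, against 59.2% and 15 in the other tested genes. Among promoters with at most 3 CpG pairs, an element within 1 base of the full one stood in 52 of 175 lower genes (29.7%) and in 13% of 1192 others, a split also made after the shares were seen. The full element, the shorter site and the single forms were not counted on their own in this split. Adam29 and Des, described below, hold TGACATCA or TGATGTCA and are not shown. The matched windows of 6 other described genes that hold the form, all lower in homozygotes, are shown as examples. Each is the 140 bases before the start, 5′ to 3′ on the gene's strand, with the element in capitals.
Tnp1 (chr1:73015900-73016039, minus strand): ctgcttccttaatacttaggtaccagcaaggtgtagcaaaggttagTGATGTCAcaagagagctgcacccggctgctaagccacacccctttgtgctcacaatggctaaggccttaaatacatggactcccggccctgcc
Akap4 (chrX:7067375-7067514, plus strand): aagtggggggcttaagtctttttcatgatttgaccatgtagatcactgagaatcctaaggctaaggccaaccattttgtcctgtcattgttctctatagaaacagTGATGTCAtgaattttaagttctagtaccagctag
Fscb (chr12:64474899-64475038, minus strand): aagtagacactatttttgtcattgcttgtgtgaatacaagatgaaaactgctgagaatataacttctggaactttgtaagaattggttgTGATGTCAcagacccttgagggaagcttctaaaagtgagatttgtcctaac
Gapdhs (chr7:30743682-30743821, minus strand): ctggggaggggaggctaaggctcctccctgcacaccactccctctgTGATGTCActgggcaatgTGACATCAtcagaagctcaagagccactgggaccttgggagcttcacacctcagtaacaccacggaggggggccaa
Hsfy2 (chr1:56637452-56637591, minus strand): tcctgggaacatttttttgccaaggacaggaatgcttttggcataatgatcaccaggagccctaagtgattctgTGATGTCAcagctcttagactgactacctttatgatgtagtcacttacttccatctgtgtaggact
1700012A03Rik (chr6:32050148-32050287, plus strand): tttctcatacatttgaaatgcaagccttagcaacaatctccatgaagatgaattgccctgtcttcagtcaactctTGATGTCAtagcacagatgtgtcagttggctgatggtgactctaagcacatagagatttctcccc
The nearest element begins 94 bases before the start in Tnp1, 35 in Akap4, 51 in Fscb, 76 in Gapdhs, 66 in Hsfy2 and 65 in 1700012A03Rik, and Gapdhs holds it in both orientations. Prm1 holds TGACTTCA 64 bases before its start instead, and no element within 1 base stands in the windows of Prm2 and Tnp2. The form is not limited to lower genes: it also stands 8 bases before the start of Des, a muscle filament gene at 2.62 and 3.48 CPM in heterozygotes and 10.4 and 6.45 CPM in homozygotes.

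Regulators that act in spermatids were themselves lower in part. Of 15 tested, 14 were below 0, and the median log2 difference was -1.37. DESeq2 called 3 lower (20%, against 4.78% of all tested genes) and 0 higher. Fhl5, a coactivator of CREM, was at 58.1 and 152 CPM in heterozygotes and 4.95 and 6.33 CPM in homozygotes (log2 difference -4.22, SE 0.71, DESeq2 adjusted p 1.69e-07). Creb3l4, a spermatid bZIP factor, was at 137 and 546 against 29.5 and 42.7 CPM, and Hsfy2, a heat shock factor relative, at 77.7 and 335 against 8.19 and 29.1 CPM. These are the called members, each without overlap between genotypes. Crem, looked up after the promoter shares were known, was at 334 and 393 CPM against 127 and 159 CPM, ratios of 0.379 and 0.404, and was not called (DESeq2 adjusted p 0.267, edgeR 0.431). Nr6a1, an orphan nuclear receptor and the member with the highest mean, had ratios of 0.553 and 0.692 and was not called either.

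Tail genes were low for the accessory sheaths, while the axoneme lay closer to all genes. The list of outer dense fibre and fibrous sheath genes had a median log2 difference of -2.39, and all 15 tested members were below 0. DESeq2 called 8 lower (53.3%, against 4.78% of all tested genes). Akap4, the main scaffold of the fibrous sheath, stood at 856 and 3408 CPM in heterozygotes and 69.1 and 71.5 CPM in homozygotes, ratios of 0.0807 and 0.021 (DESeq2 adjusted p 5.55e-09). Fscb, a calcium-binding fibrous sheath protein, was at 255 and 896 against 22.4 and 30.1 CPM, ratios of 0.088 and 0.0335. Oaz3, an antizyme of elongating spermatids found at the sheath, was at 131 and 439 against 9.51 and 11.3 CPM, ratios of 0.0728 and 0.0258. In all 3, the homozygous libraries were alike and the heterozygous libraries differed from each other. Odf2, an outer dense fibre scaffold and the member with the most reads, was less reduced, at 4058 and 11619.7 against 1817 and 2792 CPM, and was not called (DESeq2 adjusted p 0.149).

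Midpiece genes followed the sheath genes, with a median of -2.44 over 9 tested and 4 called lower (44.4%, against 4.78%). Spem1, needed to shed cytoplasm from elongated spermatids, was at 9.84 and 245 CPM against 1.01 and 0.504 CPM, with the widest gap between heterozygous libraries among the members named here. Smcp, a cysteine-rich protein of the mitochondrial capsule, was at 236 and 1612 against 55.2 and 30.9 CPM, and Spata18, a mitochondrial protein, at 144 and 561 against 14.1 and 17 CPM. Cul3, a ubiquitin ligase scaffold of broad expression and the member with the highest mean, had ratios of 0.278 and 0.256 and was not called (DESeq2 adjusted p 0.108).

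The axoneme, the microtubule core of the tail, had a different range. Its median was -0.17 over 30 tested, 17 were below and 13 above 0, and the median was 0.30 without TMM factors. DESeq2 called 2 lower (6.67%, near the 4.78% of all tested genes), both tektins, which line the doublet microtubules. Tekt5 was at 65.1 and 60.4 CPM in heterozygotes and 10.1 and 8.91 CPM in homozygotes, and Tekt4 at 37.2 and 68.1 against 8.19 and 13.2 CPM. Their replicate ratios were closely alike, 0.155 and 0.148 for Tekt5 and 0.22 and 0.194 for Tekt4. Rsph1, a radial spoke head protein and the member with the highest mean, was at 855 and 4809.9 against 2732 and 6663 CPM, with overlapping groups. The summed axonemal level was 10837 and 15298 CPM in heterozygotes and 8336 and 20979 CPM in homozygotes.

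Kinases, head shaping factors and acrosomal genes were lower too. Among the testis-specific serine kinases and their substrate, 5 of 7 were called lower (71.4%, against 4.78% of all tested genes). The median was -3.95. Tssk2, which acts in elongating spermatids, was at 66.4 and 1094 CPM in heterozygotes and 13 and 27.8 CPM in homozygotes. Tsks, the kinases' substrate in the centriole region, was at 65.8 and 280.5 against 23.8 and 29 CPM. Tssk6, needed for histone replacement, was at 1.15 and 46.3 against 0 and 0.194 CPM, so its higher heterozygous level rests on replicate 2. Summed over the list, heterozygous replicate 2 held 9.87 times the level of replicate 1, the largest such ratio of the spermatid lists described here.

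For sperm head shaping, 9 of 18 genes were called lower (50%, against 4.78% of all tested genes). All 18 were below 0, and the median was -2.26. Actrt2, an actin-related protein of the perinuclear theca, was at 31.2 and 159.5 CPM against 1.92 and 6.61 CPM. Cylc2, a cylicin of the same structure, was at 210.4 and 778 against 26.3 and 37.1 CPM, and Capza3, the sperm actin capping subunit, at 74.9 and 377 against 11.9 and 21.7 CPM. Meig1, which helps to assemble the manchette that moulds the head, was the most abundant in reads, at 1878 and 3514 against 670.4 and 570.2 CPM (DESeq2 adjusted p 0.0198). The 2 genotypes did not overlap in any of these 4 genes.

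In the acrosome and sperm-egg contact list, 6 of 26 tested genes were called lower (23.1%, against 4.78% of all tested genes). The median was -1.65. Izumo3, a sperm membrane protein of the Izumo family, was at 56.1 and 184 CPM in heterozygotes and 7.89 and 15.4 CPM in homozygotes. Acrv1, an acrosomal vesicle protein, was at 61.2 and 177 against 12.6 and 21 CPM, and 4930579C15Rik at 66.4 and 71.9 against 14.7 and 17.2 CPM, where the libraries of each genotype were nearly equal. Crisp2, a cysteine-rich acrosomal protein with the highest mean, was at 1951 and 4627 against 590.3 and 1010.4 CPM, just inside the threshold (DESeq2 adjusted p 0.0492, edgeR 0.393).

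Germ cell ADAM proteases, chaperones and channels divided within their lists. Of 20 ADAM genes, 8 were called lower (40%, against 4.78% of all tested genes), with a median of -2.16. Adam29 was at 40.2 and 138 CPM in heterozygotes and 2.93 and 5.04 CPM in homozygotes, Adam34 at 22.1 and 62.2 against 2.73 and 3.85 CPM and Adam6b at 67.9 and 173 against 12.6 and 11.7 CPM. By contrast Adam5, the member with the highest mean, was at 1478 and 2976 against 545 and 2211 CPM, with overlapping genotypes and no call. Close copies occur in this family, and how the authors assigned reads shared between copies is not given in the sources used here.

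Of 9 genes for sperm protein maturation, 3 were called lower (33.3%, against 4.78% of all tested genes). Calr3, a calreticulin of spermatids, was at 61 and 171 CPM against 10.4 and 6.18 CPM. Prss37, a protease-like protein needed to process a sperm surface protein, was at 21.8 and 88.5 against 2.83 and 1.76 CPM, and Ace, whose testis form is made in spermatids, at 96.1 and 407 against 22.5 and 29.6 CPM. Clgn, a chaperone already made in spermatocytes, was at 3101 and 4050.4 against 1836 and 2891 CPM and was not called. Among 14 ion channel genes 3 were called lower (21.4%, against 4.78%), with a median of -0.92. These were Atp1a4, the sperm sodium pump, at 360.4 and 963 against 52.9 and 63.6 CPM, Catsper1, a pore subunit of the sperm calcium channel, at 131 and 217 against 22.3 and 17.3 CPM, and Lrrc52, an auxiliary subunit of the sperm potassium channel, at 14.3 and 16.3 against 2.63 and 1.47 CPM.

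Of 12 tested energy enzymes of germ cells, DESeq2 called 3 lower (25%, against 4.78% of all tested genes). All had a log2 difference below 0, and the median was -0.85. Gapdhs, the sperm form of a glycolytic dehydrogenase, was at 133 and 862 CPM in heterozygotes and 23.2 and 25.4 CPM in homozygotes. Pgk2, the sperm phosphoglycerate kinase, was at 154 and 883 against 35.5 and 90.8 CPM and Aldoart1, a sperm aldolase, at 19.8 and 74.3 against 3.64 and 7.05 CPM. Ldhc, a lactate dehydrogenase already made in spermatocytes, was at 1366 and 2197 against 842 and 2318 CPM, with overlapping genotypes. Its log2 difference was -0.20 and turned to 0.25 without TMM factors and to 0.42 without homozygous replicate 1.

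Many of the lowest values belonged to testis transcripts known by a clone name. Of 157 tested genes of the RIKEN clone series to which 1700012A03Rik belongs, DESeq2 called 58 lower (36.9%) and 0 higher (median -1.68). Of 177 of the series that includes 4931407G18Rik and 4933402N03Rik, 57 were called lower (32.2%) and 0 higher (median -1.25). Of all tested genes, 4.78% were called lower. 4933402N03Rik was at 128 and 163 CPM in heterozygotes and 1.11 and 0.136 CPM in homozygotes. 1700012A03Rik, whose promoter window is shown above, was at 74 and 349 against 1.31 and 0.504 CPM, and 4931407G18Rik at 444 and 1558 against 13.7 and 7.28 CPM. In 1700008A04Rik the libraries of each genotype were nearly equal, at 219 and 187 against 11.8 and 15.6 CPM. Dnajb8, a chaperone of the DnaJ family, held 0 and 0.0775 CPM in homozygotes, against 14.1 and 141 CPM in heterozygotes. The members with the highest means were not called, with ratios of 0.915 and 0.443 for 1700010I14Rik and 0.481 and 0.498 for 4930534B04Rik. Proteases of the Prss family behaved like the clones in part: 5 of 21 were called lower (23.8%, against 4.78%), and 7 lay above 0. Prss52, a called member, was at 21 and 128 against 3.94 and 1.07 CPM.

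**Figure D4:**
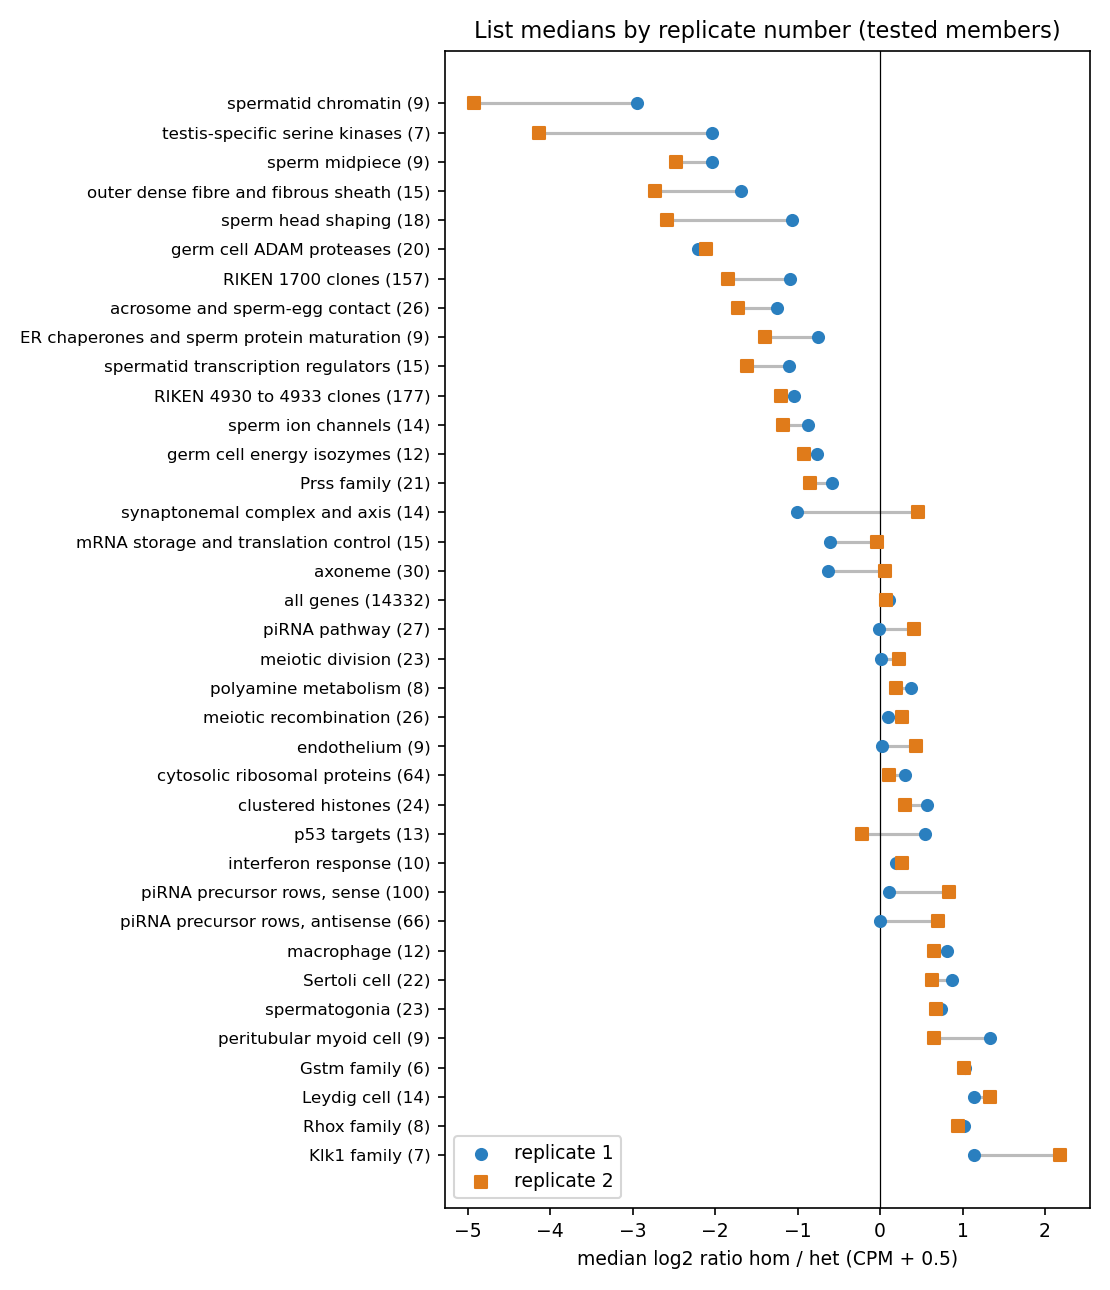
Median log2 ratio of homozygous to heterozygous CPM (plus 0.5) over the tested members of each list with at least 6 of them, circles for replicate 1 and squares for replicate 2, with the number of tested members in brackets. Medians in numbers 1 and 2 are lowest for spermatid chromatin, at -2.95 and -4.92, and the replicate numbers lie on different sides of 0 for the synaptonemal complex, the axoneme, the piRNA pathway and p53 targets.

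Genes of mRNA storage, which hold spermatid messages untranslated, showed no call among 15 tested (DESeq2 0, edgeR 0, 1 with an unadjusted edgeR p under 0.05). Their median was -0.33, and 0.11 without TMM factors. Paip2, an inhibitor of the poly(A)-binding protein, was at 117 and 453 CPM in heterozygotes and 60.3 and 74.8 CPM in homozygotes (edgeR adjusted p 0.368). Csda, a cold shock domain protein that binds stored messages, was at 1309 and 5538 against 884 and 1472 CPM. Csda overlapped between genotypes, and in both genes the heterozygous libraries lay far apart. Pabpc1, the poly(A)-binding protein with the highest mean of the list, was at 2508 and 4568 against 1606 and 4459 CPM, with overlap.

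Meiotic genes had no calls, and the direction of the axis genes depended on the replicate number. Of 14 synaptonemal complex and axis genes DESeq2 called 0, and edgeR gave 2 an unadjusted p under 0.05, both lower. The list's median ratio was -1.01 and 0.45 on the log2 scale in numbers 1 and 2. Sycp2, a component of the chromosome axis, was at 1351 and 722 CPM in heterozygotes and 417 and 1155 CPM in homozygotes. Syce3, a central element protein, was at 90.8 and 195 against 46.6 and 32.7 CPM (DESeq2 adjusted p 0.0896) and Rec8, a meiotic cohesin, at 16.6 and 17.7 against 5.86 and 7.71 CPM.

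Recombination and division genes were close to the median of all genes. Recombination genes had a median of 0.11 over 26 tested, with 0 calls by either tool and 0 at an unadjusted edgeR p under 0.05. Psmc3ip, which helps strand exchange, was at 569.9 and 620.2 CPM against 385 and 246 CPM. Tex15, needed for double-strand break repair and piRNA function, was at 295 and 239 against 47.1 and 193 CPM, low in homozygous replicate 1 alone. Division genes had a median of 0.07 over 23, also with 0 calls by either tool and 1 unadjusted p under 0.05, that of the checkpoint gene Mad2l1, at 9.02 and 6.12 against 19 and 21.3 CPM. Hspa2, a chaperone of spermatocytes needed to complete meiosis, was at 1428 and 3615 against 1436 and 3474 CPM, with ratios of 1.01 and 0.961.

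Most spermatogonial genes had moderately higher values, while their summed level was not higher. Of 23 tested, 18 were above 0 and 11 did not overlap between genotypes, all higher in homozygotes, a share of 47.8% where 21.1% of all tested genes did so. Their median was 0.81, and 0 were called by either tool or had an unadjusted edgeR p under 0.05. Kit, the receptor of differentiating spermatogonia, was at 36.9 and 27 CPM in heterozygotes and 77.9 and 54.4 CPM in homozygotes, ratios of 2.11 and 2.01. Rarg, a retinoic acid receptor, was at 1.31 and 2.51 against 4.15 and 6.24 CPM. Dmrtb1, a factor at the entry to meiosis and the member with the highest mean, went the other way on average, at 102 and 713 against 108 and 382 CPM. Summed over the list, the level was 918 and 1297 CPM in heterozygotes and 899 and 1117 CPM in homozygotes, ratios of 0.979 and 0.861.

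Genes of the piRNA machinery lay at the level of all genes. DESeq2 called 1 of 27 tested genes lower (3.7%, against 4.78% of all tested genes) and 0 higher, and the median was 0.04. That gene was Akap1, an outer mitochondrial membrane anchor whose sperm forms are known, at 155 and 704 CPM in heterozygotes and 20.4 and 30.8 CPM in homozygotes, ratios of 0.132 and 0.0438 (DESeq2 adjusted p 7.54e-06). Gtsf1, a PIWI cofactor, was at 43.6 and 64.7 against 21.7 and 23.4 CPM and Dnmt3l, a regulator of DNA methylation in fetal germ cells, at 1.8 and 3.41 against 0.809 and 0.465 CPM. Neither passed (edgeR adjusted p 0.488 and 0.356). Ddx4, the helicase also called VASA, had the highest mean and overlapped, at 1156 and 1487 against 564 and 1500.2 CPM.

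The genes that encode PIWI and its Tudor partners were named after their values were seen. Piwil1, the PIWI protein of pachytene spermatocytes and round spermatids, was at 137 and 263 CPM against 148 and 573 CPM, and Piwil2, a PIWI protein also made in earlier stages, at 109.9 and 161 against 124 and 322 CPM. Tdrd6, a scaffold of the chromatoid body, was at 680.2 and 1359.7 against 396 and 1505 CPM, and Tdrd7 at 335 and 512 against 198 and 361 CPM. Mael, an HMG-box piRNA factor, was at 698 and 909 against 460.2 and 459.6 CPM. None of these 5 was called by edgeR or DESeq2.

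Rows for piRNA precursor loci had no calls in the sense orientation. The gene table holds 100 loci in each orientation, named by cytogenetic band, and all 100 sense rows were tested. Their median log2 difference was 0.43, 73 were above and 27 below 0, and DESeq2 and edgeR each called 0, with 2 at an unadjusted edgeR p under 0.05. Summed, sense rows were at 21731 and 19651 CPM in heterozygotes and 21013 and 34899 CPM in homozygotes, so the excess lay in homozygous replicate 2. The sense row with the highest mean, piRNA_6-qF3-8009.1_sense, was at 741 and 1285 against 591 and 1500.5 CPM. The next, piRNA_9-qC-31469.1_sense, was at 1064 and 551 against 978 and 1536 CPM, and neither separated the genotypes. Smallest in p were piRNA_4-qB3-277.1_sense, at 2.13 and 3.41 against 5.36 and 18.9 CPM, and piRNA_4-qB3-3994.1_sense, at 16.7 and 34.9 against 43.8 and 158 CPM, both higher in each number.

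Antisense rows were sparse, with 66 of 100 tested. DESeq2 called 2 lower (3.03%) and 1 higher (1.52%), against 4.78% and 0.174% of all tested genes. The lower rows were piRNA_13-qA5-464.1_anti, at 29.5 and 16.4 CPM in heterozygotes and 4.85 and 2.96 CPM in homozygotes, and piRNA_13-qA5-703.1_anti, at 13 and 9.19 against 1.31 and 1.8 CPM. Both carry the same band name, and their replicate ratios were 0.164 and 0.18 for the first and 0.101 and 0.196 for the other. Of the antisense rows with the highest means, piRNA_13-qB1-1517.1_anti was at 58.5 and 139.8 against 25.3 and 33.4 CPM and piRNA_14-qC1-1010.1_anti at 21.8 and 6.4 against 16.7 and 12 CPM, and neither was called. The higher row, piRNA_9-qA5.3-24188.1_anti, was at 1.97 and 2.16 against 3.34 and 27.7 CPM and thus rested on homozygous replicate 2.

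Somatic cell genes were mostly higher in homozygotes, with 1 call by DESeq2 in the Sertoli and Leydig lists together. In the Leydig cell list, genes of the androgen-producing cells between the tubules, 13 of 14 tested were above 0 with a median of 1.22, 10 did not overlap (71.4%, against 21.1% of all tested genes), and 0 were called by either tool, with 3 at an unadjusted edgeR p under 0.05. Cyp17a1, an enzyme of androgen synthesis, was at 76.3 and 123 CPM in heterozygotes and 184 and 347 CPM in homozygotes. Hsd17b3, which makes testosterone, was at 56.7 and 33.4 against 132 and 113 CPM, and Nr5a1, the steroidogenic nuclear receptor, at 20.5 and 9.88 against 63 and 38.1 CPM. All 3 had higher values in both homozygous libraries. Insl3, a major Leydig cell hormone gene, was at 0 reads in all 4 libraries, so this defining marker could not be read.

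Sertoli cell genes, from the nurse cells of the tubule, had a median of 0.81 over 22 tested and 19 above 0. Of the 22, 6 did not overlap, all higher in homozygotes (27.3%, near the 21.1% of all tested genes). An unadjusted edgeR p under 0.05 was given to 1. Clu, encoding clusterin, was at 123 and 355 CPM against 376 and 849 CPM, and Trf, encoding transferrin, at 17.1 and 22.8 against 45 and 37.3 CPM. DESeq2 called 1 member higher, Shbg, the androgen-binding globulin, at 0 and 0.348 against 2.33 and 3.66 CPM, a low level throughout. Summed levels over each list were 1077 and 1321 CPM against 1962 and 2163 CPM for Sertoli and 536 and 556 CPM against 1061 and 1218 CPM for Leydig cell genes. These higher levels accompanied the lower spermatid levels, and what part a change of cell proportions has in either was not tested.

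Single members of the other somatic lists went against their lists. In the myoid list 8 of 9 genes were above 0, among them Smtn, encoding smoothelin, at 4.59 and 2.85 CPM in heterozygotes and 23.4 and 7.44 CPM in homozygotes. Actg2, a smooth muscle actin, was instead called lower, at 173 and 385 against 19 and 17.3 CPM (DESeq2 adjusted p 3.18e-07). In the macrophage list 9 of 12 were above 0, such as Csf1r, the macrophage growth factor receptor, at 3.12 and 2.51 against 5.86 and 10.1 CPM. Aif1, also known from macrophages, was called lower, at 512 and 1992 against 74.5 and 42.5 CPM (DESeq2 adjusted p 5.75e-07). Both had less in heterozygous replicate 1 than in replicate 2, as most of the 405 genes did, and both held most of their list's summed level in heterozygotes. No other member of either list was called by DESeq2, although 3 of the 12 macrophage genes, Aif1 included, lay below 0. Mrc1, the macrophage mannose receptor and the next in mean level, was at 93.1 and 42.5 against 108 and 93.6 CPM. Of the 15 listed macrophage genes, 3 did not pass the filter on low counts, among them Tyrobp, at 0.328 and 0.139 against 0.404 and 0.446 CPM, and Cd14, at 0 and 0.139 against 0 and 0.194 CPM. Endothelial genes had a median of 0.15 over 9 with 0 calls by either tool and 0 at an unadjusted edgeR p under 0.05.

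Among gene families, glutathione transferases of the Gstm group diverged. Gstm2 was called higher, at 17.7 and 9.74 CPM in heterozygotes and 65.3 and 238 CPM in homozygotes (DESeq2 adjusted p 3.44e-04, edgeR 0.156). Gstm1 was at 72.6 and 68.2 against 157 and 451 CPM, just outside the threshold (DESeq2 adjusted p 0.0539). Gstm5, the member with the highest mean, ran the other way, at 258 and 1509.8 against 145 and 521 CPM. Kallikreins of the Klk1 group diverged as well: Klk1b21 was called higher, at 1.48 and 3.34 against 9.71 and 22.4 CPM, and Klk1b8 lower, at 18.2 and 76.2 against 0.809 and 0.465 CPM. Both families hold near-identical copies, so a value for 1 member is uncertain if reads of another were counted in it.

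Interferon response genes, p53 targets and clustered histones gave no call by either tool. Medians were 0.34 over 10 interferon response genes, 0.24 over 13 p53 targets and 0.23 over 24 histones of the genomic clusters, against 0.04 over all genes. The median of all genes itself varied with level, at 0.29 under a mean log2 CPM of 1 and 0.24 from 1 to 3. No list was matched for level. The p53 median was -0.34 without heterozygous replicate 1, and the histone median -0.034 without homozygous replicate 2. EdgeR gave an unadjusted p under 0.05 to 1 of these, the p53 target Sesn2, which was higher. All 8 tested Rhox genes, homeobox genes of the reproductive tract on the X chromosome, lay above 0 (median 1.55), with 0 calls and 1 unadjusted p under 0.05. In polyamine metabolism, Oaz3 was the single call among 8, a lower one (12.5%, against 4.78% of all tested genes).

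The higher calls were few, and those outside the lists are named only at a mean log2 CPM of at least 3 without overlap. Of the 25 higher calls by DESeq2, 2 lay under a mean log2 CPM of 1 and 7 from 1 to 3. Col6a1, a collagen VI chain of connective tissue, was at 3.28 and 5.57 CPM in heterozygotes and 16.8 and 34.6 CPM in homozygotes, ratios of 5.12 and 6.21. Fbrs, encoding fibrosin, was at 5.08 and 9.19 against 25.8 and 55.6 CPM, with no overlap. Ctsb, the lysosomal protease cathepsin B, was at 13.1 and 20.1 against 35.6 and 146 CPM. Atg4a, an autophagy protease, was at 7.22 and 5.92 against 65.7 and 14.9 CPM, with its excess in replicate 1, and Hspe1, a mitochondrial chaperonin, at 1.97 and 4.73 against 5.16 and 56.4 CPM, with its excess in replicate 2. The DESeq2 adjusted p-values of these 5 genes ranged from 0.0106 to 0.031, and the edgeR ones from 0.211 to 0.385. Among 64 ribosomal protein genes DESeq2 called 3 higher (4.69%, against 0.174% of all tested genes). EdgeR gave an unadjusted p under 0.05 to 9 of the 64 higher (14.1%, against 1.98%) and 1 lower. The 3 calls include Rps24, at 4.1 and 5.99 against 4.85 and 127 CPM, and Rps25, at 0 and 1.46 against 1.72 and 17.6 CPM, both with their excess in homozygous replicate 2. Genes of this family also differed between libraries of 1 genotype, as Rpl13a did at 19698 and 24.7 against 6741 and 72.1 CPM.

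Transposon rows gave no call between genotypes, on the scale of CPM used for genes. Of 1066 rows tested in the table of uniquely mapped reads, edgeR and DESeq2 each called 0; edgeR gave 23 an unadjusted p under 0.05, all lower (2.16%), and 0 higher (0%). Of 737 rows in the table of multiply mapped reads both tools called 0, with 3 unadjusted, all lower (0.407%). Groups did not overlap for 170 rows lower (15.9%) and 32 higher (3%) by unique reads, and for 113 lower (15.3%) and 8 higher (1.09%) by multiply mapped reads. The replicate numbers lay further apart than the genotypes: uniquely mapped transposon reads per 1000 gene reads were 193 and 63 in heterozygotes and 188 and 80.1 in homozygotes. Multiply mapped reads were 75.4 and 20.7 and 71 and 11.9.

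Young LINE-1 elements of the L1Md group, some of which can still move, had low values in the sense orientation, as most transposon sense rows did, with no call. All 6 sense rows lay below 0, with a median log2 difference of -1.11 by unique and -1.31 by multiply mapped reads, and 3 of the 6 did not overlap between genotypes, by unique reads and again by multiply mapped reads. Of all transposon sense rows, 435 of 523 lay below 0 by unique reads (median -0.46) and 320 of 372 by multiply mapped reads (median -0.71). Groups did not overlap, lower in homozygotes, for 24.9% and 18.3% of these. Other LINE-1 sense rows lay below 0 in 100 of 103 cases by unique reads (median -0.71). With the transposon table's own TMM factors 6 L1Md sense rows were below 0 by unique and 4 by multiply mapped reads, and without heterozygous replicate 1 it was 4 by either. Sense L1Md rows summed to 4457 and 1768 CPM in heterozygotes and 1492 and 1467 CPM in homozygotes by unique reads, with ratios of 0.335 and 0.83. By multiply mapped reads they summed to 4843 and 1919.7 against 1729.6 and 1233 CPM, with ratios of 0.357 and 0.642. In both tables heterozygous replicate 1 held the most. Antisense rows had no shared direction: by unique reads they summed to 3463 and 680.3 against 1969.9 and 2483 CPM, with ratios of 0.569 and 3.65, on opposite sides of 1. L1Md_F2 sense, the row with the most reads, was at 2209 and 1010.1 against 748 and 745 CPM (log2 difference -1.11, SE 0.98). Both homozygous libraries held less of it than either heterozygous one, a difference of about its error. IAP elements, endogenous retroviruses that are also still active, summed to 1008 and 636 against 873 and 948 CPM, ratios of 0.866 and 1.49. Their row with the most unique reads, IAPLTR3-int antisense, was at 101 and 159.5 against 85.1 and 176 CPM.

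The smallest p-values by unique reads belonged to LTR element rows. MamGypLTR3 sense had the smallest, at 1.64 and 5.22 CPM in heterozygotes and 0.202 and 0.213 CPM in homozygotes (edgeR adjusted p 0.204). MLT2B3 sense, of the ERVL class, was at 36.9 and 199 against 14.9 and 18.6 CPM and had the next smallest (edgeR p 0.00133). MURVY-LTR sense had the smallest of the ERV1 class (edgeR p 0.00509), at 33.3 and 157 against 20.6 and 15.9 CPM. In the same 2 rows heterozygous replicate 2 held several times the level of replicate 1, as in the spermatid lists. Reads of a family can come from copies inside other transcripts, and the tables do not separate these. Among SINEs, B2_Mm2 antisense had the most unique reads of its class, at 12006 and 1111 against 6503 and 389 CPM, and followed the replicate number.

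By multiply mapped reads a few rows were set by single libraries. L1_Mus1 antisense was at 26176 and 10747 CPM in heterozygotes but 18153 and 109 CPM in homozygotes, so homozygous replicate 2 alone was low. ORR1E sense, of the MaLR class, was at 11802 and 18 against 8936 and 5.81 CPM, high in both replicate 1 libraries. At least 4-fold lower in both replicate numbers were 2 rows (0.271%), ERVL-int sense, at 6.07 and 4.32 CPM against 1.01 and 0.271 CPM, and MLT1E2 antisense. MLT1E2 antisense, of the MaLR class too, separated the genotypes at 46.9 and 118 against 4.35 and 1.3 CPM (edgeR p 0.00773, adjusted p 1). IAPEz-int sense was at 411 and 88.7 against 250.3 and 190.5 CPM, with overlap.

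**Figure D5:**
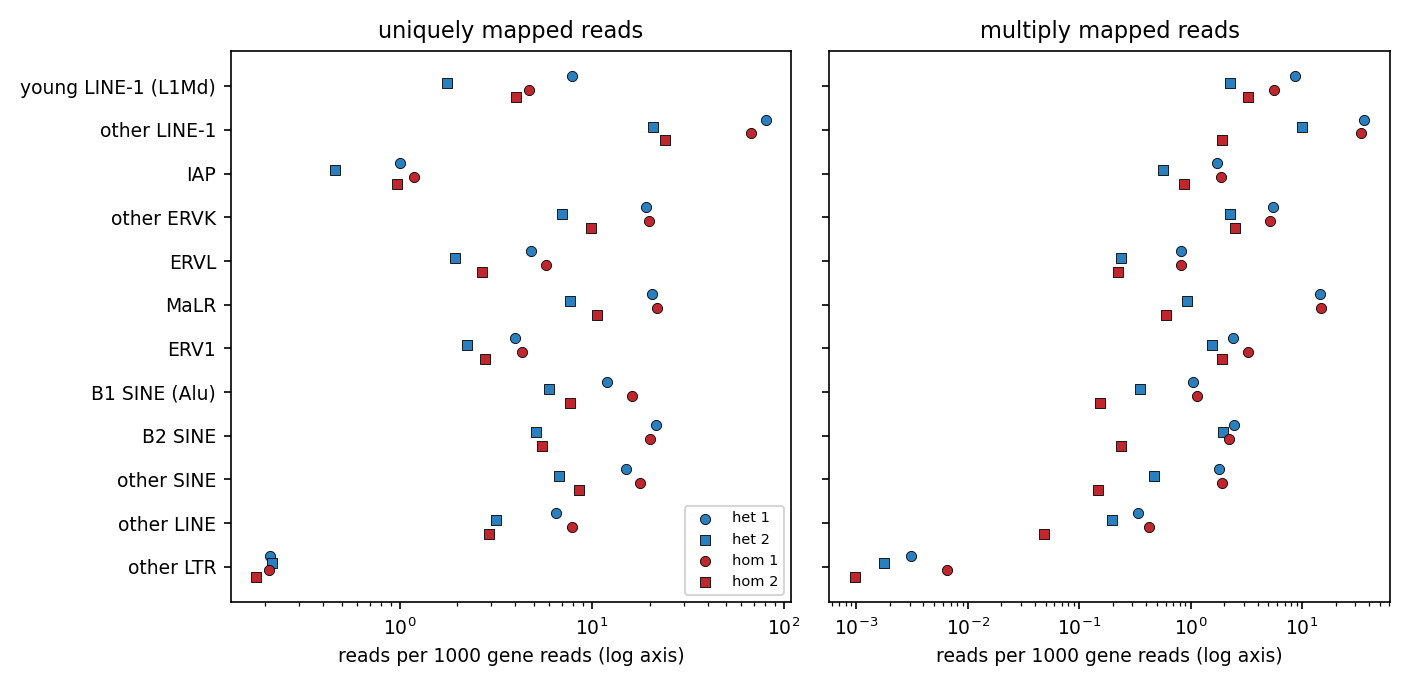
Reads of each transposon class per 1000 gene reads on a log axis, uniquely mapped reads on the left and multiply mapped reads on the right, circles for replicate 1 and squares for replicate 2, blue for heterozygous and red for homozygous. In most classes the circles lie to the right of the squares whatever the genotype.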

How the data were processed

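RNA of adult testes was sequenced from 2 heterozygous and 2 homozygous libraries. The authors mapped reads with STAR to mm9, per the submitters' processing notes, which also name DESeq and give no version or counting program. The deposited values are raw read counts per gene, per piRNA precursor locus and per transposon family and orientation, the last in separate tables of uniquely and multiply mapped reads. The authors' fold change and p-value columns were not used, and no per-sample column was left unmapped.

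Counts were tested as deposited with edgeR 4.0.16 (limma 3.58.1, R 4.3.3): filterByExpr on genotype, TMM scaling, glmQLFit and glmQLFTest with genotype as the sole term, and Benjamini-Hochberg adjustment over the whole table with a threshold of 0.05. A standard error is the log2 difference divided by the square root of the test's F statistic. Transposon tables took library sizes from the gene table. DESeq2 1.42.0 ran on the same filtered genes as an alternative, along with no filter, RLE and total-read scaling, a replicate block, each library left out, and transposon TMM factors. The model was also tested on simulated data. A ratio of "at least 4-fold" used CPM plus 0.5.

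The comparison, the gene lists and the tests were chosen with earlier results of these data known. Transposon classes were set after row names, table totals and a few rows had been seen. Named genes are, by rule, Rnf17, the protamines and transition proteins, the 3 members of smallest edgeR p and the highest mean in each list, the 8 largest differences in each direction among DESeq2 calls at a mean log2 CPM of at least 3 without overlap, and the corresponding transposon and piRNA rows. Outside that rule, Crem, Camk4, Chd5, H1fnt, Hils1, Prm3, Mael, Piwil1, Piwil2, Tdrd6, Tdrd7, Rps24, Rps25, Crisp1, Adam7, Insl3, Tyrobp, Cd14 and Mrc1 were chosen after their values were seen. List members were matched by symbol, 23 of 467 by an older symbol, and 10 were not matched. Gene reads per library ran from 6140624 to 50575649.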

Additional observations from a re-analysis of the deposited data

How the results depend on the processing

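EdgeR's count of 0 called genes stayed 0 with RLE size factors and with total-read scaling, and became 361 (2 higher, 359 lower) without the filter on low counts, 710 with DESeq2 and 73 to 1273 when 1 library was left out (73 without homozygous replicate 2, 1273 without heterozygous replicate 1); where a genotype then had 1 library, that library is assumed to vary like the pair. The DESeq2 count ran from 334 to 1261 in the same way. With the replicate number as a block, edgeR called 943 genes (105 higher, 838 lower); libraries of the same number deviated together (r = 0.589 across 14332 genes), but the labels give no pairing beyond the number. Transposon calls became 11 by unique reads with the replicate block, 0 by multiply mapped reads with it, and with 1 library left out 0 to 12 by unique and 0 to 1 by multiply mapped reads. Genes at least 4-fold lower in both numbers were 284 with 2 CPM added and 242 without TMM factors, and those 4-fold higher 0 and 44. The promoter share of 1.55% became 28.3% within 1 base. Total-read scaling turned Ldhc to 0.25, Pabpc1 to 0.22, Hspa2 to 0.45, Tdrd6 to 0.32 and Ddx4 to 0.047 on the log2 scale. piRNA_6-qF3-8009.1_sense became -0.068, IAPLTR3-int antisense -0.054 and IAPEz-int sense 0.19 with the replicate block, and ORR1E sense 0.030 and IAPEz-int sense 1.11 with the transposon table's own TMM factors, which moved the median over rows from -0.26 to 0.02 by unique and from -0.61 to -0.11 by multiply mapped reads. The row piRNA_14-qC1-1010.1_anti became -0.0198 with DESeq2 and -0.0197 with RLE size factors. The cause was not tested. Of 36 list medians, 24 kept their sign in every setting run. The other 12 turned, each in at least 1 fit without a library: axoneme to 0.27, mRNA storage to 0.17, synaptonemal complex to 0.037, meiotic recombination to -0.0031, meiotic division to -0.47, piRNA pathway to -0.18, endothelium to -0.0031, p53 targets to -0.34, Prss to 0.35, histones to -0.034, antisense piRNA rows to -0.21 and Klk1 to -3.88.

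With 1 library left out, log2 differences that changed sign ranged from -1.98 to 0.042 for Adam5, -1.04 to 0.42 for Ldhc, -0.050 to 2.41 for Rsph1, -1.09 to 0.38 for Pabpc1, -1.32 to 0.15 for Sycp2, -0.75 to 0.73 for Hspa2, -1.82 to 1.21 for Dmrtb1, -1.20 to 0.22 for Ddx4 and -2.53 to 0.31 for Gstm5. Likewise, 1700010I14Rik ranged from -1.58 to 0.36, Piwil1 ranged from -0.38 to 1.57, Piwil2 ranged from -0.090 to 1.29, Rpl13a ranged from -7.16 to 7.11, Rps24 ranged from -0.021 to 4.68, Tdrd6 ranged from -1.31 to 0.61, piRNA_14-qC1-1010.1_anti from -0.65 to 1.15 and piRNA_6-qF3-8009.1_sense from -0.73 to 0.61. Transposon rows ranged from -0.62 to 0.43 for IAPLTR3-int antisense, -4.07 to 1.63 for B2_Mm2 antisense, -9.99 to 7.96 for ORR1E sense and -0.90 to 1.31 for IAPEz-int sense. Gene reads ran from 6140624 to 50575649 per library, and what depth limits was not tested.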
